A study of Homo sapiens with 16 samples.

Results

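Aminoacyl-tRNA synthetases join each amino acid to its transfer RNA, the step that supplies every charged tRNA for protein synthesis. Human cells carry one set for the cytosol and another, encoded by separate nuclear genes, for mitochondria, whose few proteins are made on their own ribosomes; GARS1 and KARS1 are the exceptions in which 1 gene makes both enzymes. Several cytosolic synthetases sit together in the multi-synthetase complex, and many cytosolic synthetase genes are known targets of ATF4, the transcription factor made when cells lack amino acids or load with unfolded protein.

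The 35 member genes were taken as a list of symbols, matched to the Ensembl identifiers of the deposited tables, out of 60666 genes in all. Of these, 19 encode cytosolic enzymes, with GARS1 and KARS1 counted here, and 16 encode mitochondrial ones. No measured value was used to pick them, but earlier results of these data were known when they were chosen. All 35 passed the filter on low counts, and the lowest expected count of any member in any library used was 196.

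The libraries were made after removal of ribosomal RNA from U2OS, a human cell line of bone tumour origin, to ask how the PIP4K lipid kinases, which make phosphatidylinositol 4,5-bisphosphate from phosphatidylinositol 5-phosphate, bear on gene expression and splicing. The cells carried a stable hairpin against PIP4K2A, a stable hairpin against PIP4K2B, hairpins against both, or the empty plko.puro vector, all kept in puromycin. Each of these 4 lines was collected 6 h after UV-C of 30 J/m2 or left untreated, giving 8 groups of 2 libraries. The labels describe no non-targeting hairpin and no second hairpin per gene, so loss of a kinase, other effects of its hairpin and differences between the lines cannot be told apart.

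One library, vector untreated replicate 1, held 1.28 M expected counts, against 28.0 to 39.9 M in the other 15, and was set aside. Untreated vector is therefore 1 library, assumed to vary like the other groups, and the 3 untreated knockdown comparisons share it. Separate cultures are not named for the 2 libraries of a group, and a p-value here reflects their spread alone, which may be technical. PIP4K2A was 7.48 to 22.9 CPM (counts scaled to the library total) in the 8 libraries with its hairpin and 43.2 to 62.9 CPM in the others, and PIP4K2B was 11.4 to 26.6 CPM with its hairpin and 65.1 to 107 CPM in the others. Among cell type markers, VIM, COL1A1, FN1 and SPARC were high, as in a mesenchymal line, although COL1A2 was at or near 0. The 7 blood markers summed to at most 1.30 CPM and the 3 endothelial ones to at most 3.86 CPM. The 8 epithelial markers summed to 24.4 to 28.9 CPM in PIP4K2B knockdown and 48.5 to 51.3 CPM in vector libraries. PIP4K2A and double knockdown libraries lay between, at 31.3 to 40.4 CPM. CLDN4 was the highest of these 8 markers, with a median of 20.4 CPM over the 15 libraries. The part of these markers in the results was not tested.

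The promoters of the members differ in the letters that ATF4 is known to bind together with C/EBP factors. Promoter windows of 250 bases before to 50 after a start site, from RefSeq (GRCh38.p14), were used for 30 of the 35 members; those of LARS1, YARS1, VARS1, VARS2 and AARS2 were not analysed here. TGATGNAA, searched on both strands with N for any base, was in 7 of the 10 windowed members listed as known ATF4 targets, in 0 of the other 6 cytosolic members and in 1 of 14 mitochondrial members, against 4.46% of all 27305 genes with a window. The stricter TGATGCAA, contained in the first motif, was in 6 of 10, 0 of 6 and 0 of 14, against 1.08% of genes. The windowed known targets without a match were WARS1, SARS1 and EPRS1. Of these, WARS1 was lower in 3 untreated knockdown lines, SARS1 in 1 and EPRS1 in 0. The fall of ATF4 targets in these cells was known when the list was drawn up, so the motif counts are not independent evidence. The 7 sites are shown because these genes (TARS1 apart) carry most of the calls of lower expression in untreated knockdown cells; each is 30 bases of the gene's strand, 5′ to 3′, with the match in capitals, as its reverse complement where the motif lies on the other strand.
TARS1 (threonyl), chr5:33440956-33440985, plus strand: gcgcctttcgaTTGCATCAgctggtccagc
GARS1 (glycyl), chr7:30594834-30594863, plus strand: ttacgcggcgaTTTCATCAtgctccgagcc
IARS1 (isoleucyl), chr9:92293692-92293721, minus strand: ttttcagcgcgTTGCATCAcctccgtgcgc
CARS1 (cysteinyl), chr11:3057407-3057436, minus strand: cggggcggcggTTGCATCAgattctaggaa
MARS1 (methionyl), chr12:57488053-57488082, plus strand: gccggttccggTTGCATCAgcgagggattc
AARS1 (alanyl), chr16:70289675-70289704, minus strand: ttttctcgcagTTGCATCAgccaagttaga
NARS1 (asparaginyl), chr18:57621804-57621833, minus strand: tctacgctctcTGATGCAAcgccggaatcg

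The match began within 33 bases of the annotated start site in 6 of these 7 genes and 187 bases before it in AARS1. A match describes letters in a window and says nothing of binding, and a window without one leaves the factor's role unknown. CCGGAAG, the core that ETS factors are known to bind, was in 6 of 10 known ATF4 targets, 3 of 6 other cytosolic and 7 of 14 mitochondrial members, against 12.2% of genes.

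HARS1 and HARS2, the cytosolic and mitochondrial histidyl genes, lie head to head on chromosome 5. Their RefSeq start sites, 140691370 on the minus strand for HARS1 and 140691455 on the plus strand for HARS2, leave 84 bases between them. The interval is shown because HARS2 was the member with the largest fall after UV in vector cells; capitals mark its 2 CCGGAAG matches, the first of them on the other strand.
HARS1 to HARS2, chr5:140691371-140691454, plus strand: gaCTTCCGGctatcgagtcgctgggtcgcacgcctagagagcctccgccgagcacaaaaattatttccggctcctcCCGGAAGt

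In GENCODE release 29 the spans of HARS1 (ENSG00000170445, 140673904 to 140691862, minus strand) and HARS2 (ENSG00000112855, 140691426 to 140699318, plus strand) overlap. The strand setting of the counting is not given in the sources used here, so reads in the overlap may have been split between them.

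Levels were compared between genes in TPM, transcript abundances that allow for length and library total. Over the 15 libraries the cytosolic members had medians from 6.17 TPM for FARSB, the beta subunit of the phenylalanyl enzyme, to 227 TPM for MARS1. The mitochondrial members ran from 1.97 TPM for PARS2, the prolyl enzyme, to 22.8 TPM for IARS2, the isoleucyl enzyme. The 15 highest medians all belonged to cytosolic genes, led by MARS1, QARS1 (glutaminyl) and GARS1, while CARS1, FARSA, HARS1 and FARSB stood among the mitochondrial genes.

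MARS1 spanned 141 to 385 TPM and QARS1 96.3 to 173 TPM. Both levels rest on short weighted lengths: the authors' length, a mean over a gene's transcripts weighted by their use, was 633 to 1310 bases for MARS1 and 967 to 1368 bases for QARS1. In counts without division by length, IARS1, GARS1 and VARS1 (valyl) came first, with IARS1 at 359.7 to 532 normalised CPM. Normalised CPM here means expected counts scaled to the library total times the TMM factor that the fold changes use.

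In each of 15 pairs of a cytosolic and a mitochondrial gene for the same amino acid, the cytosolic gene had the higher TPM in every library. The median ratio ran from 1.71 for FARSB over FARS2 to 96.9 for MARS1 over MARS2, with 1.95 for NARS1 over NARS2, 2.93 for IARS1 over IARS2, 7.93 for AARS1 over AARS2 and 9.74 for RARS1 over RARS2 (arginyl). FARSA, the alpha subunit, stood at 14.8 TPM and FARSB at 6.17 TPM, although the cytosolic enzyme is built from equal numbers of both. The summed TPM of the cytosolic members was 7.94 to 9.18 times that of the mitochondrial members after UV and 6.95 to 8.26 times in untreated cells, ranges that overlap.

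**Figure D1:**
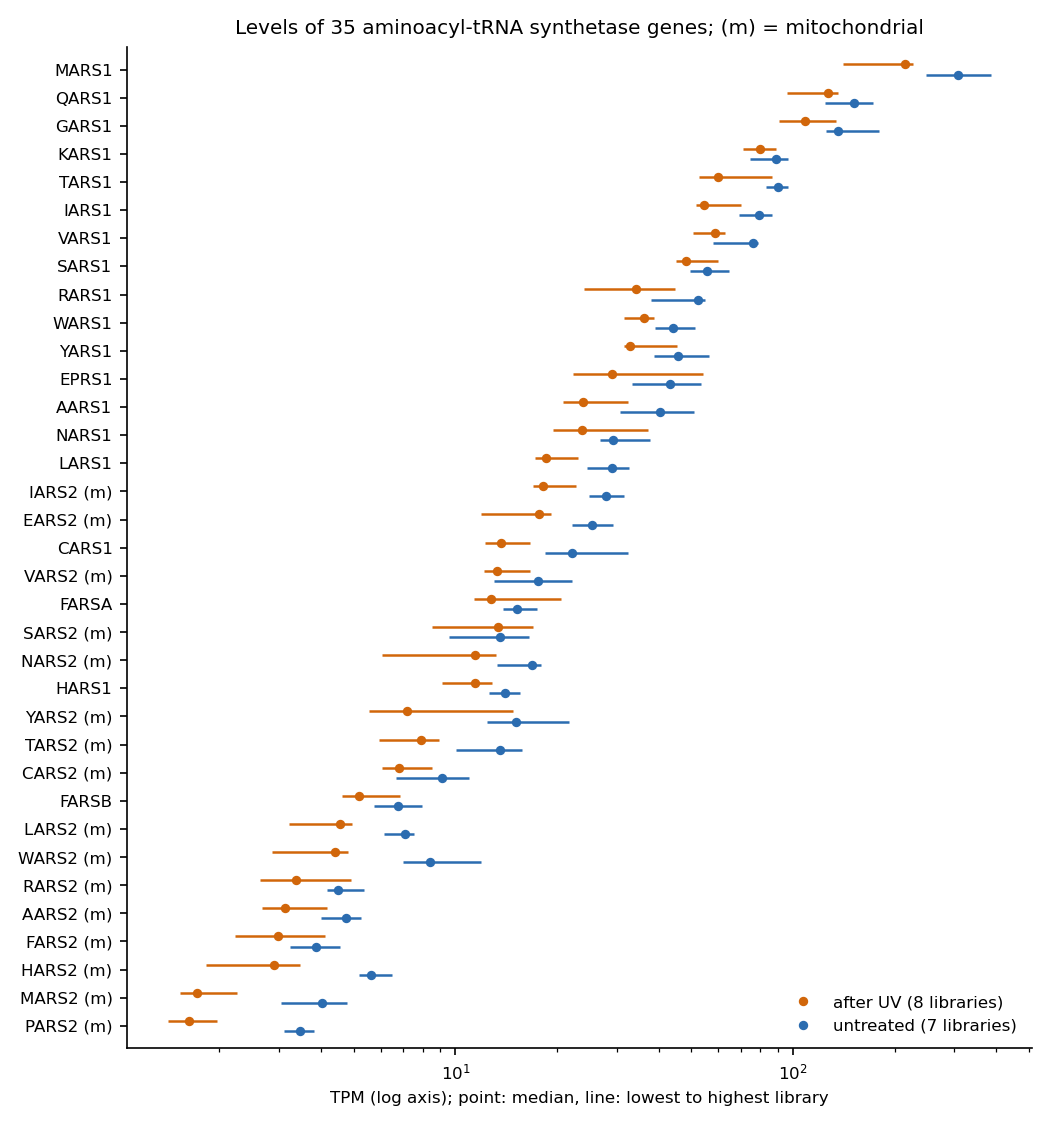
TPM of the 35 genes on a log axis, ordered by the median over 15 libraries, with the median and range of the 8 libraries after UV and of the 7 untreated libraries; (m) marks mitochondrial genes. The 15 top rows are cytosolic, and in all 35 rows the median after UV lies below the untreated one.

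The direction of the UV response depended on the scale. In TPM the median after UV was lower than the untreated median for all 35 members, and the cytosolic sum was 932 to 1064 TPM after UV against 1143 to 1494 TPM untreated. In normalised CPM the same sum was 3600 to 3931 after UV against 2855 to 3492 untreated, and the groups did not overlap on either scale. The mitochondrial sum was 108 to 134 TPM after UV against 157 to 198 TPM untreated, and 444 to 518 normalised CPM after UV against 421 to 459 untreated. The 79 cytosolic ribosomal protein genes took 42156 to 56977 TPM after UV against 35759 to 44230.0 TPM untreated; their part in the shift was not tested. Scaling the libraries to those 79 genes moved the median UV change of all tested genes to -0.79 in PIP4K2A knockdown, -0.90 in PIP4K2B knockdown, -0.85 in double knockdown and -0.70 in vector cells (log2), where TMM had put it between 0.00 and 0.02. Higher and lower after UV are therefore given below relative to the TMM scaling, close to the median gene. Fewer cells of a kind and less RNA per cell cannot be told apart in bulk RNA.

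On that scaling, cytosolic members were higher after UV in 10 to 14 of 19 cases in the knockdown lines. Under ribosomal protein scaling, however, 0 of the 35 members were higher and 29 to 33 were lower in each line. The median of all genes was then -0.70 to -0.90 (log2), so these lower counts are no result about the members. Under TMM the cytosolic members that were higher numbered 13 in PIP4K2A knockdown, 10 in PIP4K2B knockdown, 14 in double knockdown and 2 in vector cells, and 0 were lower. Over all 22597 genes tested, the share that was higher was 16.6% in PIP4K2A knockdown, 17.5% in PIP4K2B knockdown, 19.1% in double knockdown and 8.67% in vector cells. Of the 16 mitochondrial members, 2 in PIP4K2A knockdown, 2 in PIP4K2B knockdown, 3 in double knockdown and 0 in vector cells were higher and 3 in PIP4K2A knockdown, 2 in PIP4K2B knockdown, 1 in double knockdown and 1 in vector cells were lower, where the share of all genes that passed in either direction was 30.6% in PIP4K2A knockdown, 32.9% in PIP4K2B knockdown, 35.2% in double knockdown and 18.5% in vector cells. A call is a Benjamini-Hochberg adjusted p under 0.05 in edgeR's quasi-likelihood test.

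The median log2 change of the cytosolic members was 0.41 in PIP4K2A knockdown, 0.29 in PIP4K2B knockdown, 0.34 in double knockdown and 0.19 in vector cells and that of the mitochondrial members 0.08 in PIP4K2A knockdown, 0.18 in PIP4K2B knockdown, 0.17 in double knockdown and 0.08 in vector cells. Under ribosomal protein scaling the cytosolic medians were -0.40 in PIP4K2A knockdown, -0.62 in PIP4K2B knockdown, -0.54 in double knockdown and -0.54 in vector cells and the mitochondrial ones -0.72 in PIP4K2A knockdown, -0.73 in PIP4K2B knockdown, -0.70 in double knockdown and -0.64 in vector cells. Set against the median of all genes, the cytosolic members stood 0.39, 0.29, 0.31 and 0.16 higher in the same 4 lines under that scaling and 0.40, 0.29, 0.32 and 0.17 higher under TMM. A change of scaling shifts all genes of a comparison by nearly the same amount. The likeness of these gaps was therefore fixed in advance and is no second check. Whether the 2 classes differ was not tested. Under TMM, 9 of 19 cytosolic members were higher in at least 3 lines and 3 changed in 0; among 16 mitochondrial members, 1 was higher in at least 3 lines and 8 changed in 0.

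**Figure D2:**
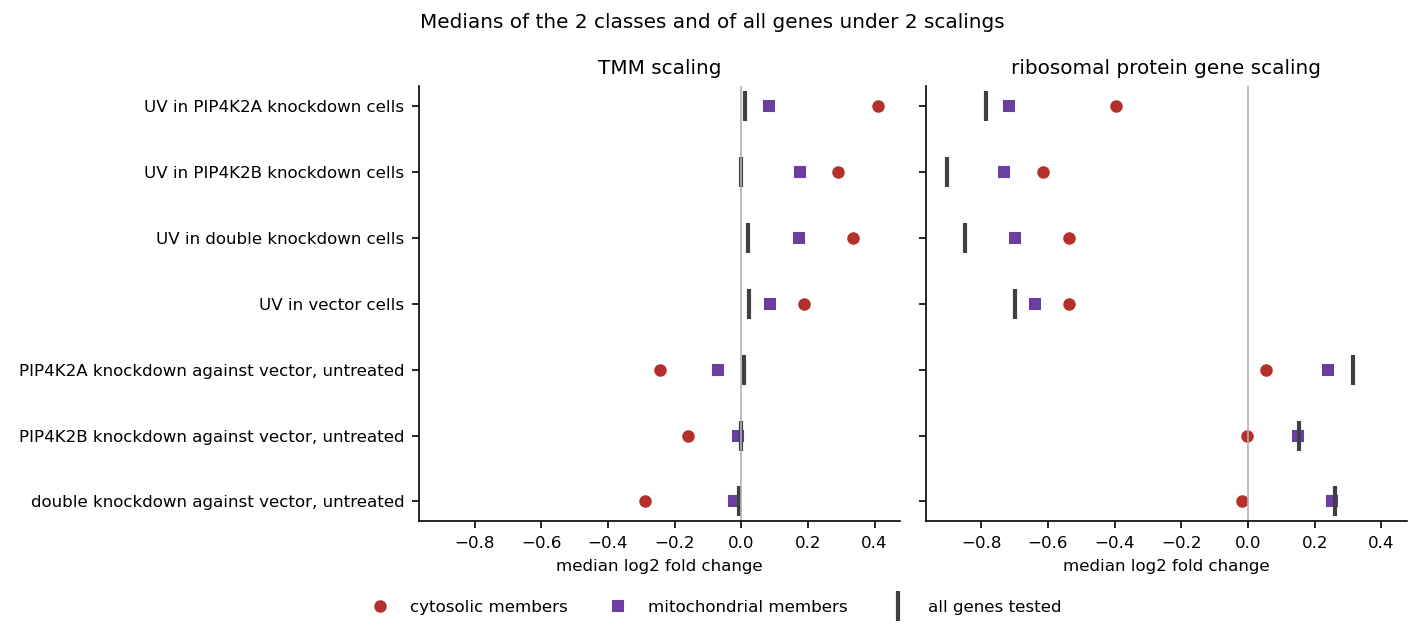
Median log2 fold change of the 19 cytosolic members, the 16 mitochondrial members and all genes tested in 7 comparisons, under TMM scaling (left) and scaling to ribosomal protein genes (right). The sign of the UV medians turns with the scaling. The gaps to all genes stay because a scaling shifts all genes of a comparison nearly alike, so they are no second check.

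KARS1, the lysyl synthetase of the cytosol, the mitochondria and the multi-synthetase complex, was higher after UV in all 4 lines on TMM scaling. It had 277 and 288 in PIP4K2A knockdown, 287 and 292 in PIP4K2B knockdown, 326 and 320.3 in double knockdown and 286 and 284 in vector cells after UV, in normalised CPM, against 195 to 204 in the 7 untreated libraries. The groups did not overlap in any line. The log2 fold changes were 0.51 ± 0.07 in PIP4K2A knockdown, 0.56 ± 0.07 in PIP4K2B knockdown, 0.68 ± 0.07 in double knockdown and 0.55 ± 0.09 in vector cells (SE), with adjusted p of 0.000226 in PIP4K2A knockdown, 0.000101 in PIP4K2B knockdown, 1.91e-05 in double knockdown and 0.00105 in vector cells by edgeR's quasi-likelihood test. Its call held in each line whichever library was left out.

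WARS1, the tryptophanyl enzyme and a gene known to respond to interferon, was the other member higher in all 4 lines. After UV it had 117 and 109 in PIP4K2A knockdown, 119 and 118 in PIP4K2B knockdown, 115 and 119 in double knockdown and 133 and 136 in vector cells, in normalised CPM. Untreated, it had 75.9 and 78.1 in PIP4K2A knockdown, 78.7 and 77.6 in PIP4K2B knockdown, 80.1 and 80.9 in double knockdown and 103 in vector cells. No UV library overlapped with an untreated one. The log2 fold changes were 0.55 ± 0.07 in PIP4K2A knockdown, 0.60 ± 0.07 in PIP4K2B knockdown, 0.54 ± 0.07 in double knockdown and 0.39 ± 0.09 in vector cells; in vector cells the edgeR adjusted p was 0.00953, and 0.0508 without vector UV replicate 2.

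QARS1, SARS1 (seryl), MARS1, IARS1, FARSA, NARS1 and YARS1 (tyrosyl) were higher in the 3 knockdown lines and missed the threshold in vector cells. QARS1 had 245 and 198 in PIP4K2A knockdown, 268 and 251 in PIP4K2B knockdown and 243 and 242 in double knockdown cells after UV, in normalised CPM, against 149 and 164 in PIP4K2A knockdown, 171 and 171 in PIP4K2B knockdown and 157 and 160.2 in double knockdown cells untreated. Each UV library was above its line's untreated libraries, and the log2 changes were 0.50 ± 0.10 in PIP4K2A knockdown, 0.60 ± 0.10 in PIP4K2B knockdown and 0.61 ± 0.10 in double knockdown cells. In vector cells QARS1 had 219 and 233 after UV and 176 untreated, a change of 0.36 ± 0.12 with an adjusted p of 0.0598 in edgeR. For the other 6 genes the changes in knockdown lines ran from 0.27 (IARS1, PIP4K2B knockdown) to 0.63 (FARSA, PIP4K2B knockdown), and those in vector cells from -0.03 for YARS1 to 0.32 for NARS1.

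FARSB, GARS1 and VARS1 were higher in 2 lines each, and EPRS1, HARS1, RARS1 and TARS1 in 1. EPRS1, the fused glutamyl and prolyl enzyme, changed by 0.39 ± 0.10 in PIP4K2A knockdown cells, and TARS1 by 0.56 ± 0.12. VARS1 changed by 0.61 ± 0.10 in PIP4K2B knockdown and 0.50 ± 0.10 in double knockdown cells. AARS1, CARS1 and LARS1 (leucyl) passed in 0 of 4 lines, with values from -0.25 (AARS1, vector) to 0.17 (CARS1, PIP4K2B knockdown). Of the 7 members in the multi-synthetase complex, 5 in PIP4K2A knockdown, 4 in PIP4K2B knockdown, 5 in double knockdown and 1 in vector cells were higher, and of the 12 cytosolic members outside it 8 in PIP4K2A knockdown, 6 in PIP4K2B knockdown, 9 in double knockdown and 1 in vector cells, where the shares of all genes were those given above. The medians were 0.41 in PIP4K2A knockdown, 0.27 in PIP4K2B knockdown, 0.36 in double knockdown and 0.21 in vector cells in the complex and 0.41 in PIP4K2A knockdown, 0.30 in PIP4K2B knockdown, 0.33 in double knockdown and 0.15 in vector cells outside it. Leaving out each library in turn, 9 of the 18 calls in PIP4K2A knockdown cells were kept every time (SARS1, KARS1, TARS1, NARS1, WARS1, MARS1, QARS1, IARS1 and RARS2), 8 of the 14 in PIP4K2B knockdown cells (SARS1, KARS1, WARS1, MARS1, QARS1, FARSA, VARS1 and VARS2) and 8 of the 18 in double knockdown cells (SARS1, KARS1, WARS1, MARS1, QARS1, IARS1, VARS1 and VARS2).

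Among mitochondrial genes SARS2, the seryl enzyme, was higher in the 3 knockdown lines on TMM scaling. It had 43.0 and 26.3 in PIP4K2A knockdown, 43.7 and 38.3 in PIP4K2B knockdown and 33.3 and 37.0 in double knockdown cells after UV, in normalised CPM, against 18.6 and 23.4 in PIP4K2A knockdown, 19.8 and 25.4 in PIP4K2B knockdown and 19.7 and 20.2 in double knockdown cells untreated. The 2 PIP4K2A knockdown UV libraries lay far apart, although both were above their untreated libraries. The log2 changes were 0.72 ± 0.21 in PIP4K2A knockdown, 0.86 ± 0.21 in PIP4K2B knockdown, 0.82 ± 0.21 in double knockdown and 0.49 ± 0.26 in vector cells, and the adjusted p in vector cells was 0.212 in edgeR. None of the 3 calls held without each library in turn. RARS2 was higher in PIP4K2A (0.74 ± 0.11) and double knockdown cells (0.43 ± 0.11), and VARS2 in PIP4K2B (0.61 ± 0.10) and double knockdown cells (0.56 ± 0.10).

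HARS2 was the only member lower in vector cells, with 9.24 and 7.87 normalised CPM after UV against 15 in the 1 untreated library. The change was -0.81 ± 0.17 (edgeR adjusted p = 0.00693; 0.0503 without vector UV replicate 2). HARS2 had 11.7 and 10.9 in PIP4K2A knockdown, 13.5 and 13.7 in PIP4K2B knockdown and 12.2 and 11.4 in double knockdown cells after UV against 12.6 and 14.4 in PIP4K2A knockdown, 15.4 and 12.9 in PIP4K2B knockdown and 11.8 and 15.3 in double knockdown cells untreated, and none of these 3 differences passed. HARS1, its head-to-head neighbour, had 36.8 and 37.6 after UV and 35.2 untreated in vector cells.

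MARS2 and PARS2 were lower after UV in both single knockdown lines. In PIP4K2A knockdown cells MARS2 had 8.06 and 11.9 normalised CPM after UV against 14.8 and 14.8 untreated, a log2 change of -0.56 ± 0.16, and in PIP4K2B knockdown cells 9.84 and 12 after UV against 16.9 and 17.6 untreated, a change of -0.66 ± 0.16. PARS2 changed by -0.42 ± 0.12 in PIP4K2A and -0.46 ± 0.12 in PIP4K2B knockdown cells. YARS2 was lower in PIP4K2A knockdown cells (-0.34 ± 0.12) and WARS2 in double knockdown cells (-0.45 ± 0.11). AARS2, CARS2, EARS2, FARS2, IARS2, LARS2, NARS2 and TARS2 passed in 0 of 4 lines.

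The UV counts rest on how the spread was estimated. Fitting the groups of each comparison alone gave 0 of 35 members in PIP4K2A knockdown cells and 14 of 35 in vector cells, where the fit over all groups gave 18 and 3. The 2 PIP4K2A knockdown UV libraries differed by a median of 0.24 (log2) over the members and 0.33 over all genes, against 0.04 to 0.06 and 0.11 to 0.16 between the UV libraries of the other lines. Without PIP4K2A knockdown UV replicate 2 the count in that line was 24, in vector cells it was 1 without vector UV replicate 2, and in double knockdown cells it was 9 without untreated replicate 1, 11 without UV replicate 1 and 8 without UV replicate 2, against 18.

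**Figure D3:**
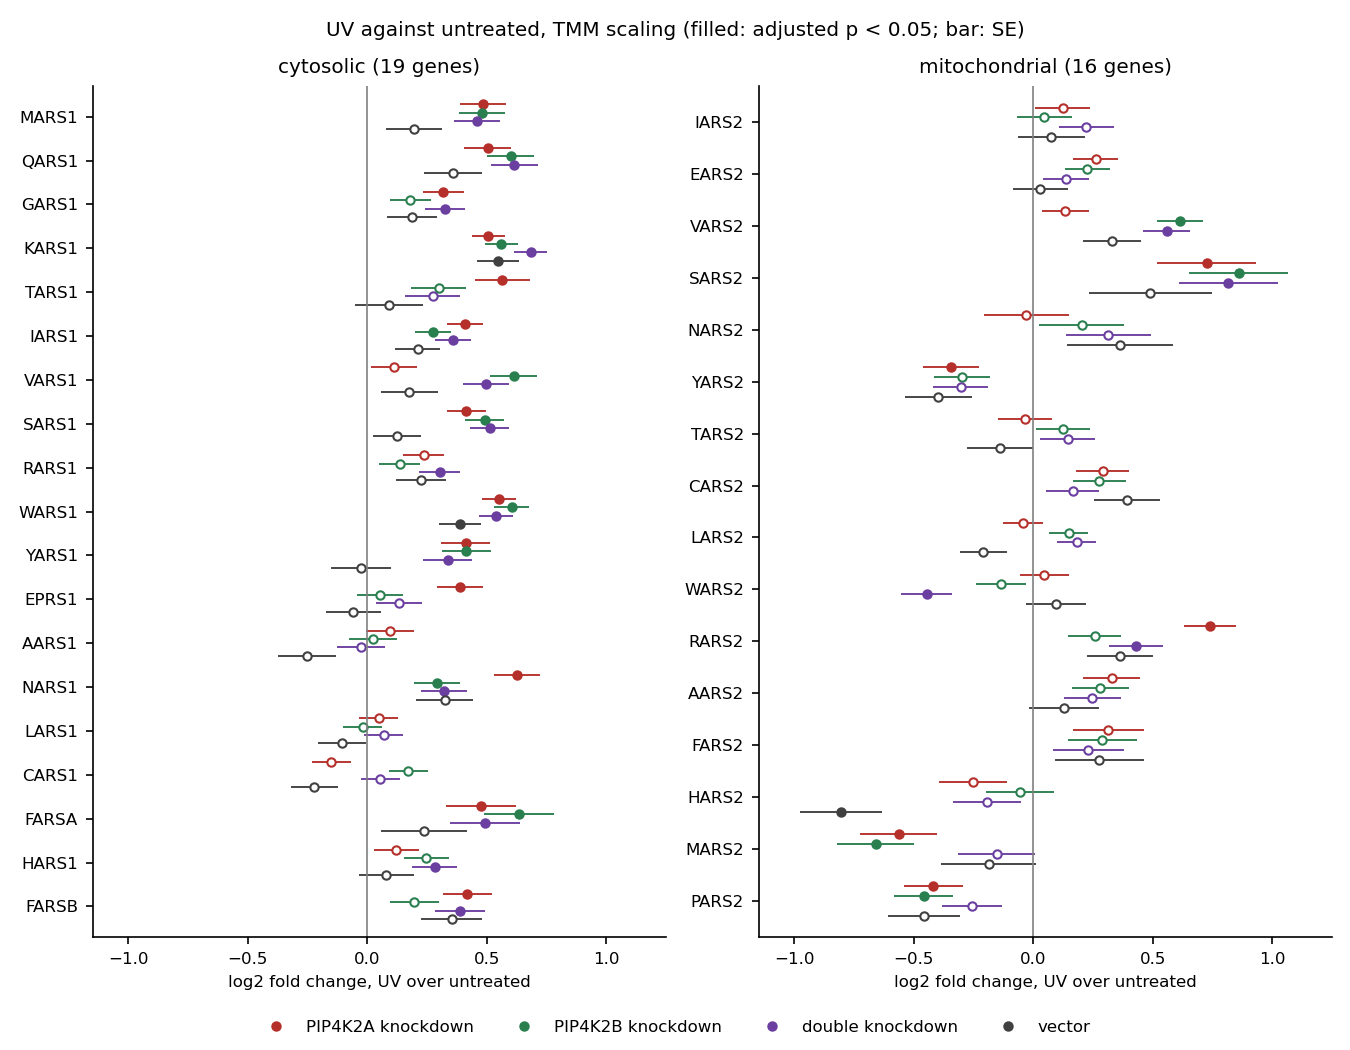
Log2 fold change of UV over untreated (point) with its SE (bar) for each gene in 4 lines, on TMM scaling, cytosolic genes left and mitochondrial genes right, ordered by TPM; filled points passed the test. Filled points of cytosolic genes all lie above 0 on this scaling, where all of them turn below 0 with ribosomal protein scaling, and those of mitochondrial genes lie on both sides.

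In untreated cells, on TMM scaling, 4 to 8 cytosolic synthetase genes were lower in each knockdown line than in vector, and no mitochondrial one passed. Of 19 cytosolic members, 8 in PIP4K2A knockdown, 4 in PIP4K2B knockdown and 6 in double knockdown cells were lower and 1 in PIP4K2A knockdown, 1 in PIP4K2B knockdown and 0 in double knockdown cells higher. Of all genes, 4.13% in PIP4K2A knockdown, 4.99% in PIP4K2B knockdown and 2.96% in double knockdown cells were lower and 3.71% in PIP4K2A knockdown, 5.26% in PIP4K2B knockdown and 3.24% in double knockdown cells higher. Of 16 mitochondrial members 0 passed in each comparison by edgeR, which at these shares of all genes is no result about that class. All calls of lower expression fell on the 12 members listed as known ATF4 targets, whose median log2 change was -0.42 in PIP4K2A knockdown, -0.36 in PIP4K2B knockdown and -0.36 in double knockdown cells, while the other 7 cytosolic members had medians of -0.10 in PIP4K2A knockdown, 0.04 in PIP4K2B knockdown and -0.15 in double knockdown cells. The fall of ATF4 targets in these cells was known when the list was drawn up, so the split is not independent evidence. After UV the 12 targets did not change more than the other 7, on TMM scaling. Their medians were 0.41 in PIP4K2A knockdown, 0.28 in PIP4K2B knockdown, 0.32 in double knockdown and 0.11 in vector cells. Those of the other 7 were 0.42, 0.56, 0.49 and 0.24 in the same lines, a difference that was not tested. Ribosomal protein scaling put the median of all genes at 0.32 in PIP4K2A knockdown, 0.15 in PIP4K2B knockdown and 0.26 in double knockdown cells and left 0, 1 and 0 members lower and 2, 1 and 1 higher in these lines. The medians of the 12 targets were then -0.11 in PIP4K2A knockdown, -0.20 in PIP4K2B knockdown and -0.08 in double knockdown cells, and those of the mitochondrial members turned to 0.24 in PIP4K2A knockdown, 0.15 in PIP4K2B knockdown and 0.25 in double knockdown cells.

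CARS1 showed the largest fall among the members. It had 58.5 and 62.7 normalised CPM in PIP4K2A knockdown, 63.0 and 62.0 in PIP4K2B knockdown and 58.2 and 65.6 in double knockdown cells, against 94.5 in vector. All 6 knockdown libraries lay below the vector library. The log2 changes were -0.64 ± 0.10 in PIP4K2A knockdown, -0.60 ± 0.10 in PIP4K2B knockdown and -0.61 ± 0.10 in double knockdown cells, with edgeR adjusted p of 0.00185 in PIP4K2A knockdown, 0.00209 in PIP4K2B knockdown and 0.00282 in double knockdown cells, and the 3 calls held whichever knockdown library was left out.

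GARS1, the glycyl enzyme of both compartments, had 356 and 316 in PIP4K2A knockdown, 356 and 328 in PIP4K2B knockdown and 343 and 334 in double knockdown cells, in normalised CPM, against 456 in vector. Its log2 changes were -0.44 ± 0.10 in PIP4K2A knockdown, -0.42 ± 0.10 in PIP4K2B knockdown and -0.43 ± 0.10 in double knockdown cells, with edgeR adjusted p of 0.0205 in PIP4K2A knockdown, 0.0221 in PIP4K2B knockdown and 0.0279 in double knockdown cells. WARS1, whose untreated values are given above, changed by -0.41 ± 0.09 in PIP4K2A knockdown, -0.39 ± 0.09 in PIP4K2B knockdown and -0.35 ± 0.09 in double knockdown cells. For both genes each knockdown library was below the vector one. Both lost their call in each line when 1 knockdown library was left out, with adjusted p up to 0.169 for GARS1 and 0.170 for WARS1 over these runs.

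AARS1 was lower in the 2 single knockdowns, with 152 and 157 normalised CPM in PIP4K2A and 151 and 144 in PIP4K2B knockdown cells, against 212 in vector. Its log2 changes were -0.46 ± 0.12 in PIP4K2A and -0.52 ± 0.12 in PIP4K2B knockdown cells. MARS1 changed by -0.46 ± 0.12 in PIP4K2A and -0.49 ± 0.12 in double knockdown cells, and NARS1 by -0.43 ± 0.12 in PIP4K2A and -0.44 ± 0.12 in double knockdown cells. SARS1 (-0.38 ± 0.10) and YARS1 (-0.45 ± 0.12) passed in PIP4K2A knockdown cells and IARS1 (-0.33 ± 0.09) in double knockdown cells. EPRS1, LARS1 and TARS1 were the 3 known targets that passed in 0 comparisons.

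RARS1, the arginyl enzyme of the multi-synthetase complex, went the other way. It had 108 and 105 normalised CPM in PIP4K2A knockdown, 120.1 and 115 in PIP4K2B knockdown and 95.8 and 94.2 in double knockdown cells, against 81.9 in vector. All 6 knockdown libraries were above the vector library. The log2 changes were 0.38 ± 0.11 in PIP4K2A knockdown, 0.52 ± 0.11 in PIP4K2B knockdown and 0.21 ± 0.11 in double knockdown cells, with edgeR adjusted p of 0.0469 in PIP4K2A knockdown, 0.00797 in PIP4K2B knockdown and 0.3 in double knockdown cells, so the double knockdown did not pass. The call in PIP4K2A knockdown cells was lost without 1 of its libraries (adjusted p = 0.156). Against PIP4K2B knockdown cells, double knockdown cells had less RARS1 (-0.31 ± 0.09) and less FARSB (-0.33 ± 0.10), the 2 members called there against 15.4% of all genes, and both calls were lost without any 1 of the 4 libraries. Double against PIP4K2A knockdown cells gave 0 members in edgeR, against 7.1% of all genes.

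The counts against 1 vector library moved with single libraries. Without 1 knockdown library at a time they were 2 (without untreated replicate 1) and 5 (without replicate 2) for PIP4K2A against 9 in all, 3 and 2 for PIP4K2B against 5, and 1 and 1 for the double knockdown against 6. The calls kept each time were CARS1 in all 3 lines and RARS1 in PIP4K2B knockdown cells. With the shallow vector library put back, 0 members passed by edgeR in each of the 3 comparisons, and the change of CARS1 turned to 0.21 in PIP4K2A knockdown, 0.26 in PIP4K2B knockdown and 0.26 in double knockdown cells, so the direction of these results rests on setting that library aside.

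**Figure D4:**
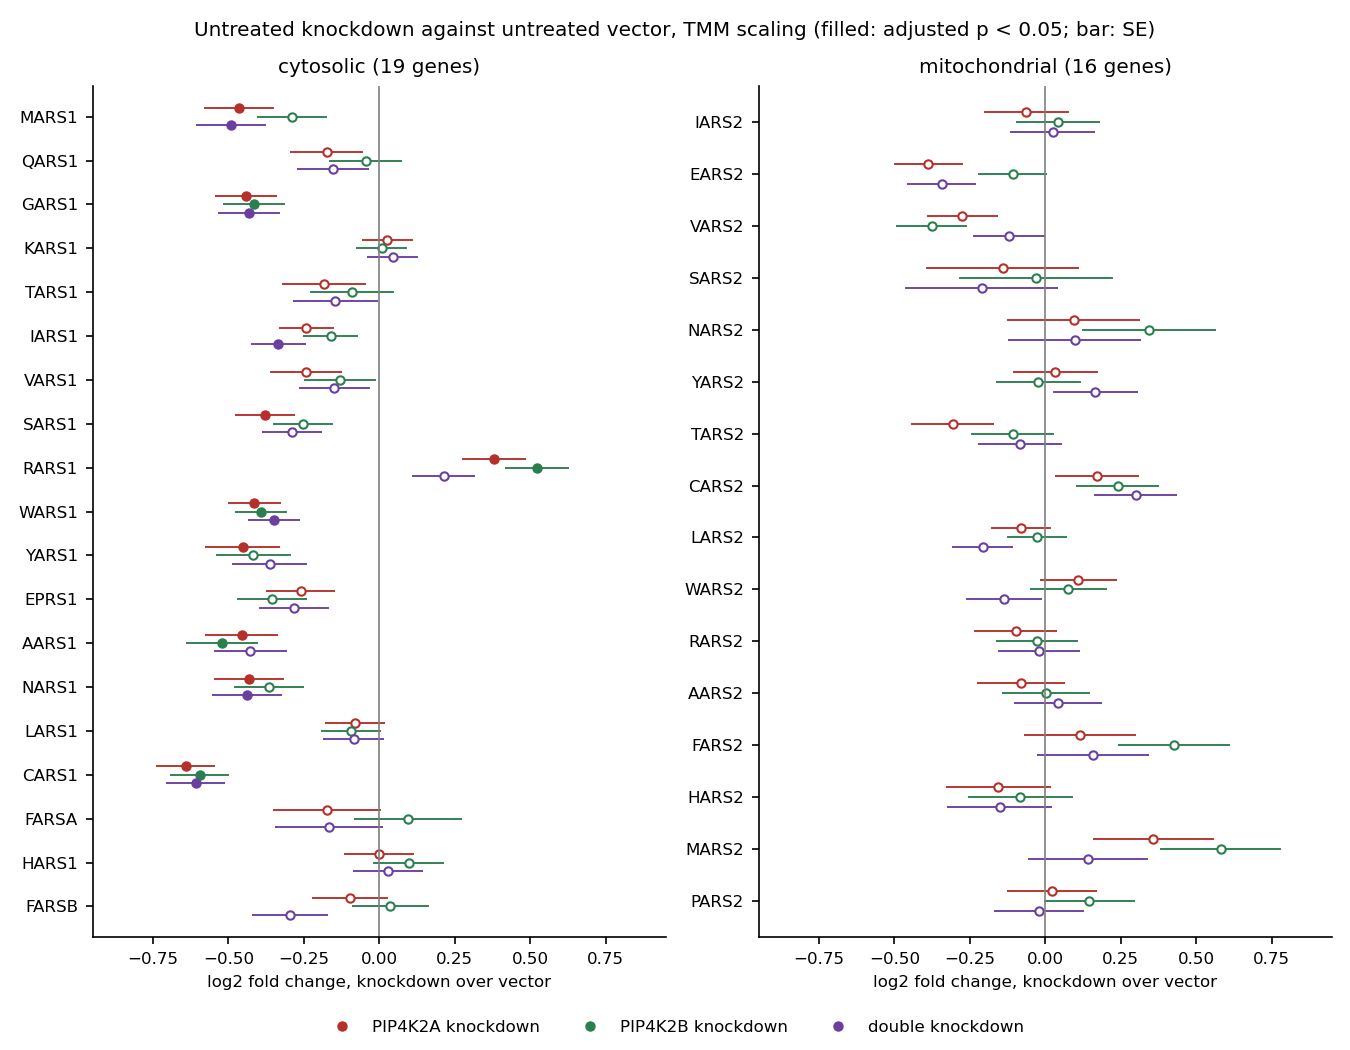
Log2 fold change of untreated knockdown over untreated vector (point) with its SE (bar) on TMM scaling, cytosolic genes left and mitochondrial genes right; filled points passed the test. CARS1, GARS1 and WARS1 have filled points left of 0 in all 3 knockdowns, RARS1 has 2 right of 0, and the mitochondrial panel has no filled point.

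After UV, 5 to 7 of the 35 members differed between each knockdown line and vector. The members that passed numbered 6 in PIP4K2A knockdown, 7 in PIP4K2B knockdown and 5 in double knockdown cells. Of 19 cytosolic members, 1 in PIP4K2A knockdown, 3 in PIP4K2B knockdown and 1 in double knockdown cells were higher and 4 in PIP4K2A knockdown, 2 in PIP4K2B knockdown and 3 in double knockdown cells lower, and of 16 mitochondrial members 0 in PIP4K2A knockdown, 2 in PIP4K2B knockdown and 0 in double knockdown cells were higher and 1 in PIP4K2A knockdown, 0 in PIP4K2B knockdown and 1 in double knockdown cells lower. Of all genes, 11.3% in PIP4K2A knockdown, 10.7% in PIP4K2B knockdown and 8.5% in double knockdown cells were higher and 9.01% in PIP4K2A knockdown, 8.3% in PIP4K2B knockdown and 6.86% in double knockdown cells lower, so taken over both directions the members passed about as often as all genes. On ribosomal protein scaling the 35 members gave 7 in PIP4K2A knockdown, 2 in PIP4K2B knockdown and 3 in double knockdown cells higher and 1 in PIP4K2A knockdown, 2 in PIP4K2B knockdown and 1 in double knockdown cells lower. GARS1 was lower in all 3 lines, with 404 and 434 in PIP4K2A knockdown, 397 and 379 in PIP4K2B knockdown and 423 and 425 in double knockdown cells after UV, in normalised CPM, against 537 and 502 in vector cells. Its log2 changes were -0.31 ± 0.09 in PIP4K2A knockdown, -0.42 ± 0.09 in PIP4K2B knockdown and -0.29 ± 0.09 in double knockdown cells, and no knockdown library reached a vector library. On ribosomal protein scaling GARS1 had -0.08 in PIP4K2A knockdown, -0.45 in PIP4K2B knockdown and -0.17 in double knockdown cells, and the call held in PIP4K2B knockdown cells alone.

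RARS1 was higher in all 3 lines after UV, with 116 and 135 in PIP4K2A knockdown, 128 and 130.0 in PIP4K2B knockdown and 114 and 119.9 in double knockdown cells, in normalised CPM, against 98.8 and 92.7 in vector. Its log2 changes were 0.39 ± 0.09 in PIP4K2A knockdown, 0.43 ± 0.09 in PIP4K2B knockdown and 0.29 ± 0.09 in double knockdown cells, and again the groups did not overlap. CARS1 had 56.4 and 52.8 in PIP4K2A knockdown and 63.7 and 65.0 in double knockdown cells, against 82.1 and 80.0 in vector. Its log2 changes were -0.57 ± 0.08 in PIP4K2A and -0.33 ± 0.08 in double knockdown cells. CARS1 with 70.2 and 70.7 in PIP4K2B knockdown cells was also below both vector libraries, but did not pass in edgeR (adjusted p = 0.106).

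NARS1 was lower in PIP4K2B (-0.40 ± 0.10) and double knockdown cells (-0.44 ± 0.10) and WARS1 in PIP4K2A knockdown cells (-0.25 ± 0.07). VARS1 was lower in PIP4K2A knockdown cells (-0.31 ± 0.10) and higher in PIP4K2B knockdown cells (0.31 ± 0.10), with 310.0 and 303 normalised CPM in PIP4K2A and 482 and 457 in PIP4K2B knockdown cells, against 374 and 385 in vector. FARSA was higher in PIP4K2B knockdown cells (0.49 ± 0.14).

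Among mitochondrial genes after UV, HARS2 was higher in PIP4K2B knockdown cells (0.67 ± 0.15; edgeR adjusted p = 0.00682), where both vector libraries were below every other library. LARS2 was also higher there (0.33 ± 0.08). WARS2 was lower in double knockdown cells, with 12 and 11.4 normalised CPM against 19.2 and 18.2 in vector, a change of -0.68 ± 0.11 (edgeR adjusted p = 0.00101) that held whichever library was left out. VARS2 was lower in PIP4K2A knockdown cells (-0.47 ± 0.10). Without vector UV replicate 1 the counts over both classes were 3 in PIP4K2A knockdown, 2 in PIP4K2B knockdown and 1 in double knockdown cells, and without vector UV replicate 2 they were 2 in PIP4K2A knockdown, 3 in PIP4K2B knockdown and 2 in double knockdown cells. PIP4K2B knockdown cells gave 3 without their UV replicate 1 and 4 without replicate 2, and double knockdown cells 1 without either of theirs. The calls kept every time were CARS1 and VARS2 in PIP4K2A, RARS1 in PIP4K2B and WARS2 in double knockdown cells.

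**Figure D5:**
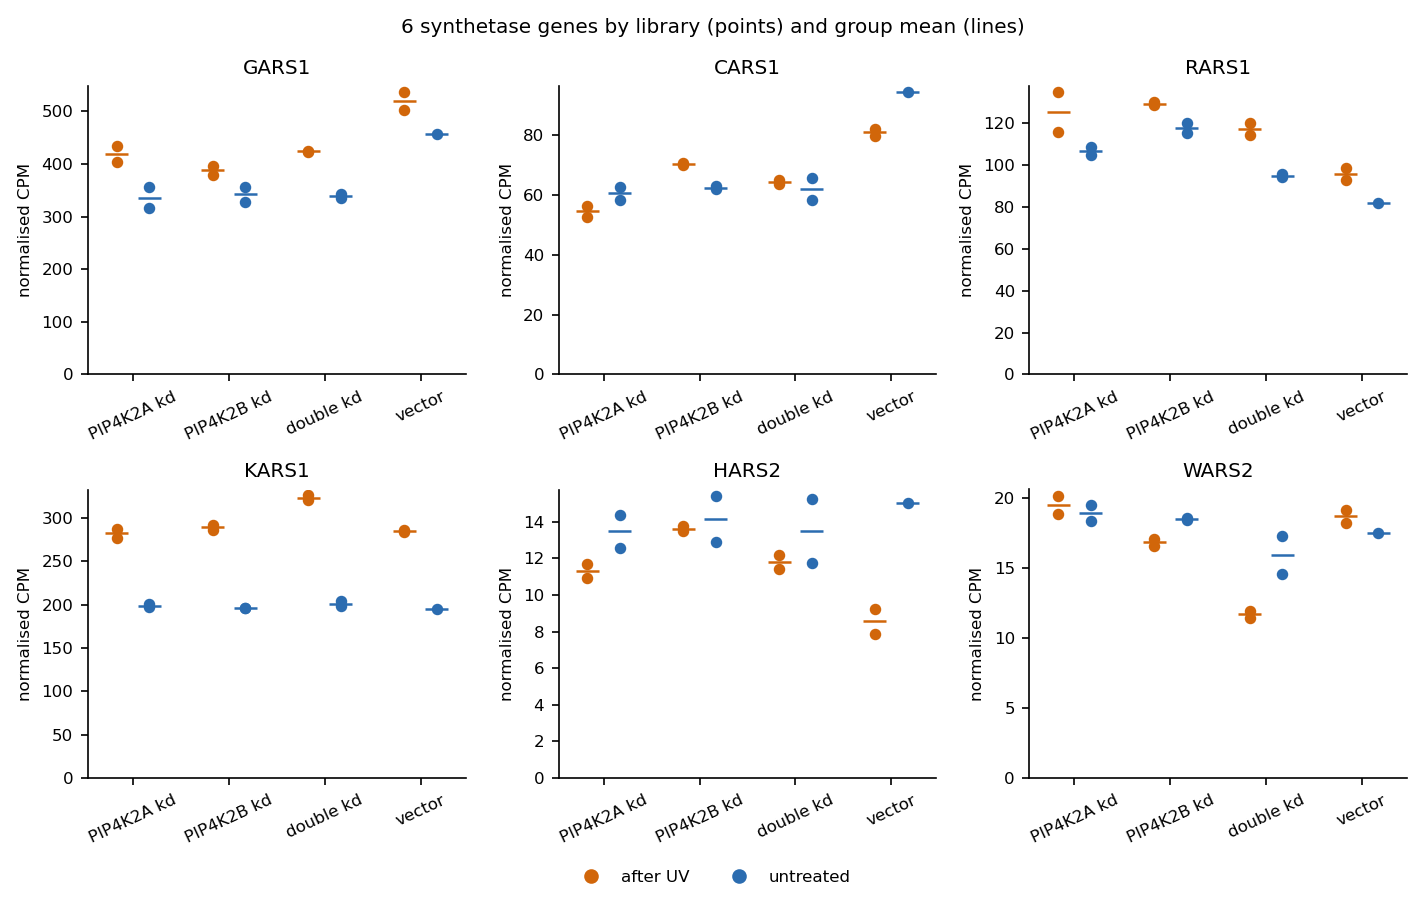
Normalised CPM of 6 genes in every library used (points) with the group mean (line), after UV and untreated, in PIP4K2A, PIP4K2B and double knockdown and vector cells; axes start at 0 and untreated vector is 1 library. GARS1 and CARS1 are lower and RARS1 higher in the knockdown lines than in vector at either condition, KARS1 is higher after UV than untreated in all 4 lines on this scaling, HARS2 is lowest in vector cells after UV and WARS2 in double knockdown cells after UV.

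No member passed the direct test of a difference between the UV responses of a knockdown line and of vector cells. In edgeR 0 of 35 were called for each of the 3 lines, and 6 in PIP4K2A knockdown, 6 in PIP4K2B knockdown and 5 in double knockdown cells had an unadjusted p under 0.05. The smallest adjusted p was 0.901 in PIP4K2A knockdown, 0.672 in PIP4K2B knockdown and 0.898 in double knockdown cells, and of all genes tested the called share was 0.00885% in PIP4K2A knockdown, 0.0% in PIP4K2B knockdown and 0.00885% in double knockdown cells. HARS2 had differences of log2 responses of 0.55 ± 0.23 in PIP4K2A knockdown, 0.75 ± 0.23 in PIP4K2B knockdown and 0.61 ± 0.23 in double knockdown cells, and YARS1 of 0.44 ± 0.16 in PIP4K2A knockdown, 0.44 ± 0.16 in PIP4K2B knockdown and 0.36 ± 0.16 in double knockdown cells. These missed the threshold, which does not show that the lines responded alike. Without PIP4K2A knockdown UV replicate 2, 5 members were called for that line, 4 of them with the larger response in the knockdown.

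The transcripts of some members changed in weighted length after UV, which moves when the isoforms in use change. Averaged over the 4 lines, limma called 8 of 35 members longer and 1 shorter, against 7.27% and 6.72% of 12648 genes tested. WARS2 was 1769 to 2692 bases with a median of 2115 after UV, against 1594 to 1945 with a median of 1839 untreated. Its mean log2 shift was 0.24 ± 0.040 (SE; limma adjusted p = 0.00827), although the ranges overlapped. TARS1 shifted by 0.15, VARS2 by 0.13, RARS2 by 0.13, AARS2 by 0.10, HARS2 by 0.09, IARS1 by 0.08 and YARS1 by 0.03. Of 14 runs without 1 library, the call on HARS2 was lost in 11 and that on VARS2 in 6.

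IARS1 had the smallest p, with 4250.1 to 4377 bases after UV against 4059 to 4142 untreated and no overlap. SARS1 was the 1 shorter member, at 1505 to 1617 bases after UV against 1599 to 1663 untreated, a shift of -0.06. Across the 35 members the span of the gene and its UV change had Spearman correlations of 0.05 in PIP4K2A knockdown, -0.16 in PIP4K2B knockdown, -0.12 in double knockdown and 0.14 in vector cells and Pearson correlations of 0.22 in PIP4K2A knockdown, 0.08 in PIP4K2B knockdown, -0.01 in double knockdown and 0.25 in vector cells, given as a description, since members share libraries.

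The other genes of the pathway were read from 8 lists with 80 genes. The 3 scaffold proteins of the multi-synthetase complex did not move together. EEF1E1 (AIMP3) had 22.4 and 20 in PIP4K2A knockdown, 24.8 and 23.3 in PIP4K2B knockdown and 15.4 and 15.7 in double knockdown cells, in normalised CPM, against 11.3 in untreated vector, so all 6 knockdown libraries were higher. It rose by 0.91 ± 0.21 in PIP4K2A and 1.09 ± 0.21 in PIP4K2B knockdown cells untreated, and by 1.11 ± 0.16 in PIP4K2A knockdown, 1.31 ± 0.17 in PIP4K2B knockdown and 0.65 ± 0.17 in double knockdown cells after UV (log2). The call in untreated PIP4K2A knockdown cells (adjusted p up to 0.091) and that in double knockdown cells after UV (up to 0.162) were lost when 1 library was left out. AIMP2 was lower in untreated PIP4K2A knockdown cells (-0.62 ± 0.14), a call lost in 1 of 2 such runs (adjusted p up to 0.126). AIMP1 was higher after UV in PIP4K2A knockdown (0.41 ± 0.10), double knockdown (0.47 ± 0.10) and vector cells (0.45 ± 0.13) on TMM scaling. With 1 library left out the vector call was lost in both runs (adjusted p 0.0774 and 0.0915) and the PIP4K2A knockdown call in 1 of 4 (0.0993). Its values were -0.39 in PIP4K2A knockdown, -0.41 in double knockdown and -0.27 in vector cells on ribosomal protein scaling.

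Of the 6 cytosolic elongation factors, which carry charged tRNA and move the ribosome, 5 in PIP4K2A knockdown, 6 in PIP4K2B knockdown, 6 in double knockdown and 4 in vector cells were higher after UV on TMM scaling, against 16.6% in PIP4K2A knockdown, 17.5% in PIP4K2B knockdown, 19.1% in double knockdown and 8.67% in vector cells for all genes. They had medians of 0.64 in PIP4K2A knockdown, 0.75 in PIP4K2B knockdown, 0.79 in double knockdown and 0.55 in vector cells, and the medians turned to -0.17 in PIP4K2A knockdown, -0.16 in PIP4K2B knockdown, -0.08 in double knockdown and -0.18 in vector cells on ribosomal protein scaling. Among them EEF1B2, which helps to reload EEF1A1 with GTP, changed by 1.27 ± 0.14 in PIP4K2A knockdown, 0.80 ± 0.14 in PIP4K2B knockdown, 0.84 ± 0.14 in double knockdown and 0.76 ± 0.18 in vector cells on TMM scaling. TUFM, which brings charged tRNA to the mitochondrial ribosome, changed by 0.97 ± 0.21 in PIP4K2A knockdown, 0.90 ± 0.21 in PIP4K2B knockdown and 0.77 ± 0.21 in double knockdown cells on that scaling and by 0.15, -0.01 and -0.10 in the same lines on the other. Leaving out 1 library lost its call in 1 of 4 runs in PIP4K2B knockdown (adjusted p up to 0.0536) and in 2 of 4 in double knockdown cells (up to 0.102). Of 11 mitochondrial translation factors, 6 in PIP4K2A knockdown, 3 in PIP4K2B knockdown, 4 in double knockdown and 3 in vector cells were higher and 1 lower in each line on TMM scaling, where the shares of all genes that were higher are those just given. Shares of all genes in either direction were 30.6% in PIP4K2A knockdown, 32.9% in PIP4K2B knockdown, 35.2% in double knockdown and 18.5% in vector cells. On ribosomal protein scaling 0 were higher and 4 in PIP4K2A knockdown, 10 in PIP4K2B knockdown, 10 in double knockdown and 5 in vector cells lower. The median of all genes was then -0.70 to -0.90 (log2), so these lower counts are no result about the list.

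Of the 12 genes of cytosolic tRNA maturation, 3 in PIP4K2A knockdown, 3 in PIP4K2B knockdown, 5 in double knockdown and 1 in vector cells were higher and 2 in PIP4K2A knockdown, 1 in PIP4K2B knockdown, 1 in double knockdown and 2 in vector cells lower after UV on TMM scaling. The share of all genes that was higher was 16.6% in PIP4K2A knockdown, 17.5% in PIP4K2B knockdown, 19.1% in double knockdown and 8.67% in vector cells, and for either direction 30.6% in PIP4K2A knockdown, 32.9% in PIP4K2B knockdown, 35.2% in double knockdown and 18.5% in vector cells. Of the 12 genes that modify mitochondrial tRNA, 4 in PIP4K2A knockdown, 1 in PIP4K2B knockdown, 1 in double knockdown and 1 in vector cells were higher and 2 in PIP4K2A knockdown, 2 in PIP4K2B knockdown, 2 in double knockdown and 1 in vector cells lower. Of the 5 genes that edit or proofread charged tRNA, 3 in PIP4K2A knockdown, 2 in PIP4K2B knockdown, 2 in double knockdown and 0 in vector cells were higher and 0 lower. The 4 genes that make mitochondrial glutaminyl-tRNA and formylate the initiator tRNA gave 1 in PIP4K2A knockdown, 1 in PIP4K2B knockdown, 2 in double knockdown and 0 in vector cells higher and 0 lower after UV, and 0 in PIP4K2A knockdown, 2 in PIP4K2B knockdown and 0 in double knockdown cells higher against vector when untreated. Against the shares of all genes, counts of 1 to 3 in a list of 12 are no result about the 2 lists of 12 genes. Larger counts were the 5 higher maturation genes in double knockdown and the 4 higher modification genes in PIP4K2A knockdown cells. Those counts, and the lists of 5 and 4 genes, were not tested against the shares of all genes. On ribosomal protein scaling 9 to 12 of the cytosolic maturation genes, 10 to 12 of the mitochondrial modification genes, 1 to 2 of the editing genes and 2 to 4 of the last list were lower after UV in a line, and 0 were higher. The median of all genes was then -0.70 to -0.90 (log2), so these lower counts are no result about the lists.

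Of the 27 genes of ATF4 and the amino acid response, 11 in PIP4K2A knockdown, 10 in PIP4K2B knockdown and 9 in double knockdown cells were lower and 1 higher in each line than in vector when untreated, a direction also known beforehand. The higher gene was EIF2AK4 each time, by 0.41 in PIP4K2A knockdown, 0.56 in PIP4K2B knockdown and 0.66 in double knockdown cells (log2). Of all genes, 4.13% in PIP4K2A knockdown, 4.99% in PIP4K2B knockdown and 2.96% in double knockdown cells were lower. On ribosomal protein scaling 5, 6 and 6 were lower and 2 higher in each. ASNS, asparagine synthetase, fell by 0.82 in PIP4K2A knockdown, by 0.38 in PIP4K2B knockdown and by 1.30 in double knockdown cells (log2). The PIP4K2A knockdown call of ASNS was lost on ribosomal protein scaling (-0.51). Whether its PIP4K2B knockdown call (edgeR adjusted p = 0.0283) held on that scaling or without single libraries was not examined. SLC1A5, a glutamine transporter, fell by 0.75 in PIP4K2A knockdown, by 0.75 in PIP4K2B knockdown and by 0.82 in double knockdown cells.

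After UV those 27 genes gave 12 in PIP4K2A knockdown, 14 in PIP4K2B knockdown, 13 in double knockdown and 7 in vector cells higher and 4 in PIP4K2A knockdown, 3 in PIP4K2B knockdown, 3 in double knockdown and 5 in vector cells lower on TMM scaling, where all genes gave 16.6% in PIP4K2A knockdown, 17.5% in PIP4K2B knockdown, 19.1% in double knockdown and 8.67% in vector cells higher. In either direction all genes gave 30.6% in PIP4K2A knockdown, 32.9% in PIP4K2B knockdown, 35.2% in double knockdown and 18.5% in vector cells. Against these shares the counts of 3 or 4 lower genes in a knockdown line are no result about the list. Scaled to ribosomal protein genes, the list gave 3 in PIP4K2A knockdown, 2 in PIP4K2B knockdown, 2 in double knockdown and 0 in vector cells higher and 18 in PIP4K2A knockdown, 19 in PIP4K2B knockdown, 17 in double knockdown and 16 in vector cells lower. The median of all genes was then -0.70 to -0.90 (log2), so these lower counts are no result about the list. The list members lower in all 4 lines on TMM scaling were SLC38A2, VLDLR and SESN2. SLC38A2 changed by -1.39 in PIP4K2A knockdown, -1.49 in PIP4K2B knockdown, -1.54 in double knockdown and -1.14 in vector cells. ATF4 mRNA itself, named after its values were seen, changed by 1.04 ± 0.08 in PIP4K2A knockdown, 0.91 ± 0.08 in PIP4K2B knockdown, 1.05 ± 0.08 in double knockdown and 0.64 ± 0.10 in vector cells on TMM scaling and passed in all 4 lines. With ribosomal protein scaling its changes ran from -0.09 in vector to 0.23 in PIP4K2A knockdown cells, and the call was lost in all 4 lines. In untreated cells ATF4 was lower in PIP4K2A (-0.42 ± 0.09) and double knockdown cells (-0.52 ± 0.09), and each call was lost in 1 of its 2 runs with 1 knockdown library left out (adjusted p up to 0.0906 in PIP4K2A and 0.052 in double knockdown cells). Both were also lost on ribosomal protein scaling (-0.11 in PIP4K2A and -0.24 in double knockdown cells). ATF4 is regulated mainly through its translation, which these libraries do not measure.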

How the data were processed

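RNA without ribosomal RNA was sequenced in 16 libraries of 8 groups. The authors deposited RSEM expected counts, TPM and a transcript length in bases, weighted by isoform use, for each gene; reads had gone through STAR, SAMtools and RSEM on GRCh38, per the submitters' processing notes. For the annotation release and the strandedness of counting, no source used here gives a value. Depth was 28.0 to 39.9 M expected counts in the 15 libraries used.

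Expected counts were rounded and fitted in edgeR 4.0.16 (R 4.3.3) with 1 term per group over 15 libraries, TMM scaling, filterByExpr with a minimum count of 10, the quasi-likelihood test and Benjamini-Hochberg adjustment over 22597 genes; SE is the change divided by the root of F. Log2 lengths of genes with a mean count of at least 100 were tested in limma 3.58.1, averaging UV over the 4 lines. The scripts were tested on simulated data. The members and lists were chosen with earlier results of these data known. All members are described; of each pathway list, up to 4 genes with the largest changes past the test could be named. Alternatives were RLE and ribosomal protein scaling, other filters, DESeq2 1.42.0, separate fits, a replicate block, single libraries left out and all 16 libraries. Gene spans came from GENCODE 29 and promoters from RefSeq.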

Additional observations from a re-analysis of the deposited data

Results flagged for a closer look

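DDIT4, a stress gene on the list of ATF4 and the amino acid response, changed after UV by 0.63 (log2) in PIP4K2A knockdown and by -0.84 in vector cells on TMM scaling. The difference between these UV responses, 1.47, passed the test, with an edgeR adjusted p of 0.0151. The call was lost without PIP4K2A knockdown untreated replicate 1 or either vector UV library, and in a fit on only the groups compared (adjusted p = 0.70). DDIT4 had 39.1 and 35.6 normalised CPM after UV and 21.5 and 26.8 untreated in PIP4K2A knockdown cells, against 44.7 and 47.6 after UV and 82.4 in the 1 untreated vector library. That library was above all 14 others, whose values were 21.5 to 47.6. Against vector, DDIT4 changed by -1.77 in PIP4K2A knockdown, -1.39 in PIP4K2B knockdown and -1.56 in double knockdown cells when untreated, and was called in none of the 3 lines after UV. Its UV change was 0.44 in PIP4K2B knockdown and 0.42 in double knockdown cells. On TMM scaling it thus rose in all 3 knockdown lines where it fell in vector cells, which have 1 untreated library. Ribosomal protein scaling moved the median UV change of all genes to -0.79 in PIP4K2A, -0.90 in PIP4K2B and -0.85 in double knockdown cells. The rises of DDIT4 therefore hold relative to TMM scaling only. The test of a difference from the vector response did not call DDIT4 in PIP4K2B or double knockdown cells.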

How the results depend on the processing

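Most counts of called members moved with the choice of scaling or of the libraries that share an estimate of spread, and the cause was not tested. RLE size factors, DESeq2, a filter of CPM above 1 in 2 libraries and no filter on low counts changed 3, 2, 2 and 14 of 120 single calls and reversed none. Of the counts, only these moved by over 1.5 times: 5 members for UV in vector cells and 9 for untreated PIP4K2B knockdown under the CPM filter, and 3 for double knockdown after UV with no filter. No alternative with a length test reversed a call, a mean count of at least 30 kept all 9 length calls, and one of at least 500 kept the 7 it could test (HARS2 and RARS2 were below it) and called 8 in all.

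Fitted on only the groups compared, UV called 0 members in PIP4K2A knockdown and 14 in vector cells; untreated knockdown called 1 in PIP4K2A knockdown, 11 in PIP4K2B knockdown and 11 in double knockdown cells; after UV the counts were 0, 14 and 16 in the same lines, and double against PIP4K2B knockdown gave 4.

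Leaving out 1 library at a time gave 13 to 24 members for UV in PIP4K2A knockdown, 10 to 14 in PIP4K2B knockdown, 8 to 13 in double knockdown and 1 to 3 in vector cells. It gave 2 to 5, 2 to 3 and 1 in both runs for the untreated PIP4K2A, PIP4K2B and double knockdowns, 2 to 8, 2 to 4 and 1 to 2 for the same lines after UV, 0 to 5 for the difference of UV responses in PIP4K2A knockdown cells, and 0 for the differences in the other lines and for double against either single knockdown. Length calls numbered 7 to 13. Vector untreated replicate 2 was not left out, since no library of its group would remain.

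The labels number replicates 1 and 2 in every group. Over 21 pairs of groups, untreated vector left out, the differences between replicates 1 and 2 across genes correlated by -0.12 to 0.19. Pairing by number was thus not seen, but weak correlations cannot exclude a shared culture or run, on which the labels are silent. With a replicate block 8 of 129 single calls were lost, the other 121 were not, and double against PIP4K2B knockdown called 1 member.

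Scaled to ribosomal protein genes, UV called 30 members in PIP4K2A knockdown, 33 in PIP4K2B knockdown, 31 in double knockdown and 29 in vector cells, all lower. The median UV change of all genes was then -0.70 to -0.90 (log2), so these counts are no result about the members. On that scaling the untreated knockdowns called 2, 2 and 1, PIP4K2B knockdown after UV 4 and double against PIP4K2B knockdown 0. The UV changes (log2) that turned in PIP4K2A knockdown cells were GARS1 -0.49, EPRS1 -0.43, YARS1 -0.40, IARS1 -0.40, AIMP1 -0.39, SARS1 -0.39, FARSB -0.38, FARSA -0.33, MARS1 -0.32, QARS1 -0.31, KARS1 -0.29, WARS1 -0.26, TARS1 -0.26, NARS1 -0.19, SARS2 -0.096 and RARS2 -0.068. The UV changes (log2) that turned in PIP4K2B knockdown cells were IARS1 -0.63, NARS1 -0.62, YARS1 -0.49, MARS1 -0.43, SARS1 -0.42, KARS1 -0.35, QARS1 -0.31, WARS1 -0.30, VARS1 -0.29, VARS2 -0.29, FARSA -0.27, EEF1B2 -0.11, SARS2 -0.049 and TUFM -0.011. The UV changes (log2) that turned in double knockdown cells were HARS1 -0.59, RARS1 -0.57, GARS1 -0.55, NARS1 -0.55, YARS1 -0.54, IARS1 -0.52, FARSB -0.49, RARS2 -0.45, MARS1 -0.41, AIMP1 -0.41, VARS1 -0.38, FARSA -0.37, SARS1 -0.36, WARS1 -0.34, VARS2 -0.31, QARS1 -0.26, KARS1 -0.19, TUFM -0.0998, SARS2 -0.057 and EEF1B2 -0.0298. The UV changes (log2) that turned in vector cells were WARS1 -0.34, AIMP1 -0.27, KARS1 -0.18 and ATF4 -0.091.

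With all 16 libraries, where the biological coefficient of variation was 41.9% against 11.3%, edgeR called 0 members in the UV, untreated knockdown and after-UV comparisons and in double against PIP4K2B knockdown, and limma called 4 by length. In untreated PIP4K2A knockdown cells the changes that turned were GARS1 0.016, ASNS 0.084, YARS1 0.15, CARS1 0.21, AIMP2 0.29, AARS1 0.35, SARS1 0.38, MARS1 0.40, NARS1 0.41, WARS1 0.44 and ATF4 0.47. In untreated PIP4K2B knockdown cells the changes that turned were GARS1 0.045, SLC1A5 0.23, CARS1 0.26, AARS1 0.29 and WARS1 0.46. In untreated double knockdown cells the changes that turned were GARS1 0.041, SLC1A5 0.17, CARS1 0.26, ATF4 0.38, MARS1 0.38, NARS1 0.42, WARS1 0.51 and IARS1 0.58.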
